A study of Mus musculus with 18 samples.

Results

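Imprinted genes are transcribed mainly from the copy inherited from one parent. The choice is set by DNA methylation laid down in the germ line at imprinting control regions, and one control region often governs a cluster that holds protein-coding genes of one parental origin and long noncoding RNAs of the other. Many imprinted genes act on growth and on the development of the brain, where their dosage is under close control.

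The 39 genes described here are mouse genes known to be imprinted, taken by symbol from the 51912 genes of the deposited count tables and grouped by imprinted domain. They include *Meg3*, a maternally expressed long noncoding RNA, and *Gnas*, which encodes the stimulatory G protein alpha subunit and is imprinted in only some tissues. All but 1 of them (38 of 39) had at least 10 read pairs on their own strand over the 18 libraries and were tested together with the other genes that did, 23718 in all. The exception was *Rtl1*, a retrotransposon-derived gene, with 6 pairs. Of the 38, 30 had a mean of at least 1 CPM (read pairs divided by the TMM-scaled library size and given as counts per 1e6 pairs) over the 18 libraries and 6 had at least 100 CPM.

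The libraries came from primary astrocytes of the cortices of newborn mice, with equal numbers of males and females. In every group the cells carried 1 copy of the Aldh1l1-EGFP/Rpl10a transgene (line JD130Htz on B6;FVB, bred to C57BL/6J), in which the *Aldh1l1* promoter of astrocytes drives RPL10A, a protein of the large ribosomal subunit, fused to EGFP. Confluent cultures were replated, kept without serum for 24 h and then held for 24 h in serum-free medium with 50 mM ethanol or without it (0 mM, control). In translating ribosome affinity purification (TRAP) the tagged ribosomes are pulled down from a cleared lysate. The IP libraries therefore hold RNA bound to tagged ribosomes (6 control and 6 ethanol dishes), and the input libraries hold the RNA of the same lysate before the pull-down (3 control and 3 ethanol dishes, replicates 4 to 6, the same dishes as IP replicates 4 to 6). Debris was spun out before both fractions were taken. Between 77226980 and 137983743 read pairs per library lay on the strand of an annotated gene. Whether the dishes came from separate culture preparations is not given in the sources used here, so p-values measure the spread between dishes. The counts do not separate the 2 alleles, so all levels are sums over both.

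The label of the cells was checked against marker genes. The 10 astrocyte markers summed to 1182 ± 24.7 CPM in input control (SD, n = 3) and 1834 ± 30.8 CPM in IP control (n = 6), and *Aldh1l1* was the most abundant. The 10 microglia markers, led by *Csf1r*, summed to 79.3 ± 1.73 CPM in input control and 14.1 ± 0.39 CPM in IP control. Markers of vascular and mural cells, led by the contractile gene *Acta2*, summed to 2325 ± 50.6 CPM in input control and 3033 ± 106 CPM in IP control, above the astrocyte sum in both, and *Cldn5*, which marks brain endothelium, had no read pair. Fibroblast and meningeal markers, led by *Igfbp2*, summed to 5078 ± 95.5 CPM in input control and 7858 ± 273 CPM in IP control, also above the astrocyte sum. Most of this sum was the single gene *Igfbp2*, with a mean of 6478 CPM over the 18 libraries. Of the 11 markers, 4 were called higher and 6 lower in IP than in input. In bulk RNA, fewer cells of a type and less RNA per cell cannot be told apart.

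Promoters are shown for 4 members that carry the main results, the 250 bases before an annotated start, read 5′ to 3′ on the strand of the gene, from RefSeq on build GRCm38.p6. Capitals mark TGCCGC and its reverse complement GCGGCA, the core of the motif bound by ZFP57, a protein that keeps the methylation of imprinting control regions. The sequences are
*Meg3* chr12:109540746-109540995 strand +: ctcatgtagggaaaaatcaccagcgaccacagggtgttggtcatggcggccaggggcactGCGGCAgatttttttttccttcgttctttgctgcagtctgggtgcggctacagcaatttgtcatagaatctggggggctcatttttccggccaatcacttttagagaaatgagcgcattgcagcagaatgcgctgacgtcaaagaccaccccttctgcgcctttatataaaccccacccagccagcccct
*Plagl1* chr10:13090582-13090831 strand +: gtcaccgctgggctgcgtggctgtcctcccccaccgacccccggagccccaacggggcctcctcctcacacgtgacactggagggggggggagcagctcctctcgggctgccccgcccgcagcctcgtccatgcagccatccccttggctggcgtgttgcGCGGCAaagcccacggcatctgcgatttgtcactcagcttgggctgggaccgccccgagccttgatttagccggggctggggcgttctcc
*Mest* chr6:30737800-30738049 strand +: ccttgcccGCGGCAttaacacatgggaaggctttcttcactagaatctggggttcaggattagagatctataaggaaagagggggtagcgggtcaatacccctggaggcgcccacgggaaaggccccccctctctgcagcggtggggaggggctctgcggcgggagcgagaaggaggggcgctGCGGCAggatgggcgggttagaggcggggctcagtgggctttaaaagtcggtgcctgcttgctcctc
*Igf2r* chr17:12769707-12769956 strand -: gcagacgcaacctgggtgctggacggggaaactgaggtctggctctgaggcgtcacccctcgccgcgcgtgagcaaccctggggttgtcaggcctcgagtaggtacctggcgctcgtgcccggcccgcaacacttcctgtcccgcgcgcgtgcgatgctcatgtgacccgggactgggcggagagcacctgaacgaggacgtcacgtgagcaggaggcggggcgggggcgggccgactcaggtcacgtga
The motif was present in 1 copy in the windows shown for *Meg3* and *Plagl1* and in 2 copies in that for *Mest*, and these letters did not occur in the window before *Igf2r*. The table held 46 promoters of 32 members, and 7 of the 46 (15.2%) had the motif on either strand, against 8.68% of all 32851 promoters of the same length. The 7 include a second *Mest* window that starts 3 bases further on, while another start of *Meg3* and another of *Mest* had 0 matches. Besides *Meg3*, *Plagl1* and *Mest*, it stood before *Zdbf2*, *Copg2* and *Zim1*, while another start of *Zdbf2* had 0 matches. Member promoters held a median of 10.5 CG dinucleotides, against 6 in all promoters. A match is a description of the letters and was not tested as a binding site.

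How much of each gene was counted depended on the strand, and imprinted domains hold many overlapping genes. Of the 39 members, 17 have an exon that overlaps an exon of a gene on the other strand. The libraries kept the strand, and counting without it discards every pair that falls on such an overlap. *Gnas* (ENSMUSG00000027523, GRCm38 chromosome 2 from 174284320 to 174346744, plus strand) had 2859559 read pairs on its own strand over the 18 libraries and 52223 in the unstranded counts, 1.83% of them. The gene model on the opposite strand, *Gm20721* (chromosome 2 from 174330319 to 174346712), overlaps its exons. By own-strand total *Gnas* ranked 31 of 51912 genes, and by unstranded total 6159. *Cdkn1c*, an inhibitor of cyclin-dependent kinases that limits growth, kept 42.5% of its pairs without strand (the overlapping model is *Gm44732*), and *Ube3a*, the ubiquitin ligase lost in Angelman syndrome, kept 51.7%. In all, the unstranded count was under 90% of the own-strand count for 9 members, over 110% for 2 and between these for 28. The 2 were *Rtl1* and *Copg2*, a coatomer subunit gene that converges on *Mest*, with 80244 pairs on the strand opposite to its own beside 104237 on its own. Values below are own-strand counts throughout.

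**Figure D1:**
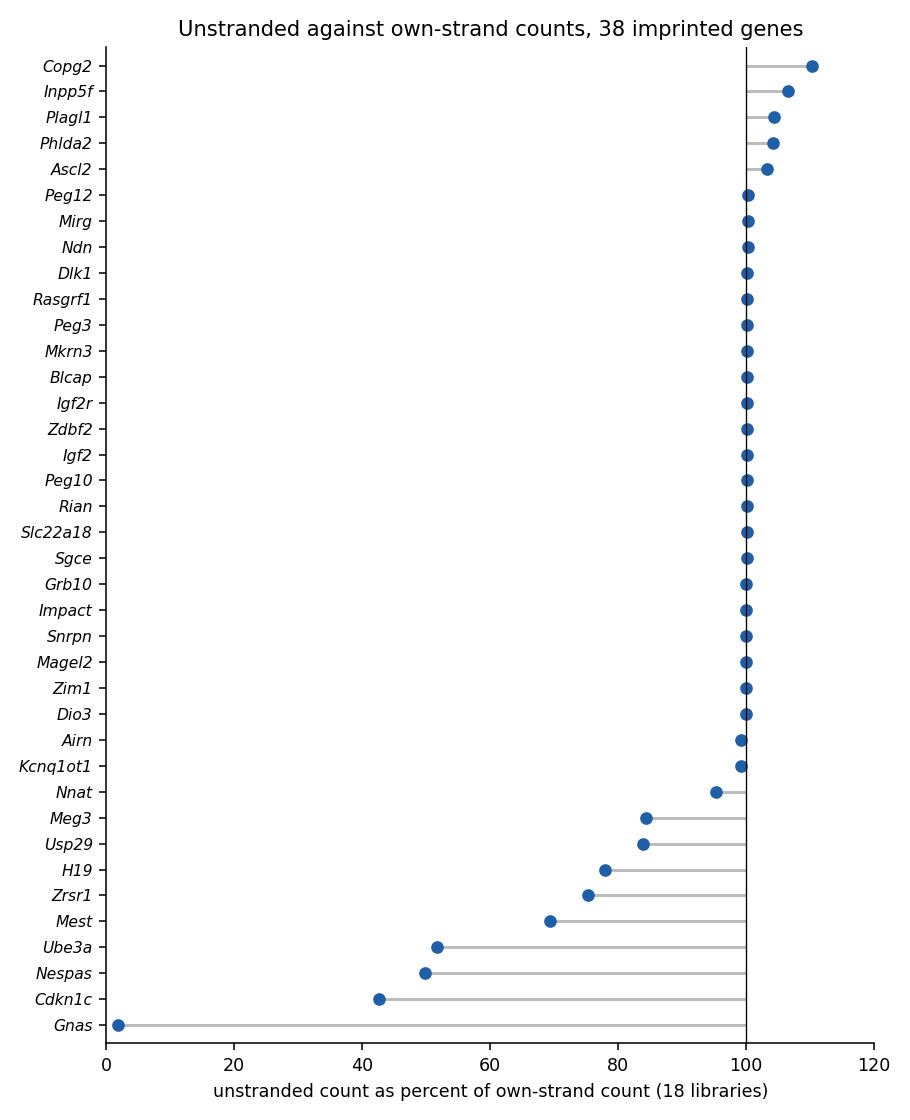
Unstranded count as a percentage of the own-strand count (x axis, summed over 18 libraries) for the 38 tested members (y axis), with a line at 100%. *Gnas* lies at 1.83%, *Cdkn1c* at 42.5%, and most members lie on the line.

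Counted this way, *Gnas* was the most abundant member, also per length. Its level was 2166, 2143 and 2172 CPM in the 3 input control libraries and 2111, 2116 and 2074 CPM in the 3 input ethanol libraries. In IP it ranged from 1532 to 1593 CPM in control (median 1578) and from 1544 to 1622 CPM with ethanol (median 1585). Every IP library lay below every input library. Per kilobase of exon, *Gnas* had 157.5 CPM over the 18 libraries, against 32.1 for *Mest*, a member of the alpha/beta hydrolase family, 27.9 for *Impact*, a regulator of translation under stress, 26.4 for *Blcap* and 23.8 for *Ndn*, a growth-restraining protein of the Prader-Willi domain. *Igf2r*, the receptor that carries IGF2 and lysosomal enzymes to lysosomes, had 22.9 CPM per kilobase and *Peg10*, a retrotransposon-derived gene, 20.1. At the low end were *Phlda2* and *Dio3*, the deiodinase that inactivates thyroid hormone, with 0.0154 and 0.0307 CPM over the 18 libraries.

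The first comparison asked how members divide between ribosome-bound and total RNA. Over the 18 libraries, 27 of 38 members differed between IP and input (71.1%, against 53% of all genes tested), 14 higher and 13 lower in IP, against 26.1% and 26.9% of all genes. Among genes with a mean of 1 CPM or more, 21 of 30 members were called against 77.8% of all such genes, so the members had no excess at that level. The groups of 17 members did not overlap, 9 higher and 8 lower in IP, against 26.3% of all genes (13.8% and 12.5%). Of the called members 5 had an absolute log2 fold change of at least 1, against 7.4% of all genes. The median log2 fold change of the members was 0.05, against -0.02 for all genes tested. Noncoding members were lower in IP: 5 of 7 fell and none of the 7 rose, while of the 31 protein-coding members 14 rose and 8 fell. Among all tested noncoding genes of the same annotation classes, members included, 20.8% were called lower and 5.11% higher, and among all protein-coding genes 30.2% were called lower and 34.7% higher.

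**Figure D2:**
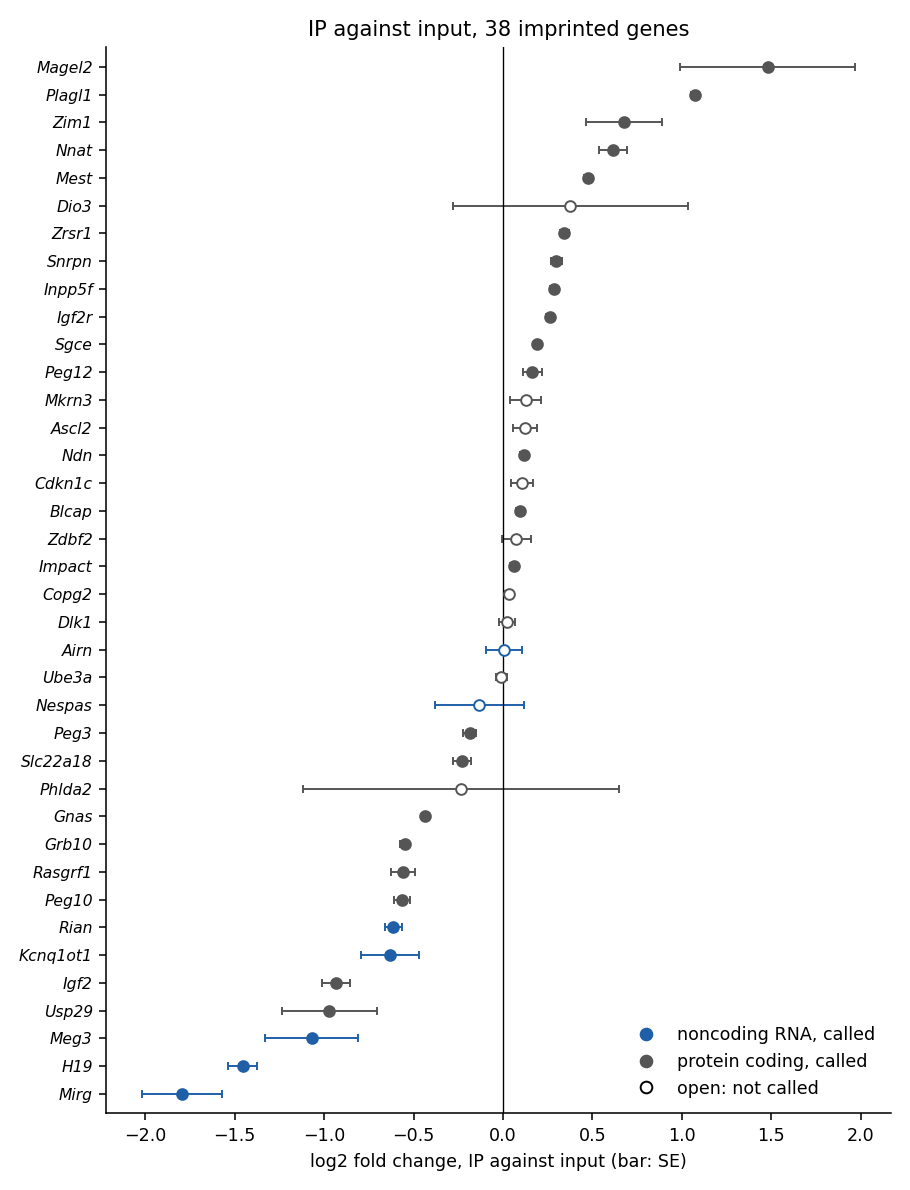
Log2 fold change of IP against input (x axis, bars show SE, 18 libraries) for 38 members, sorted (y axis), with noncoding RNAs in blue and open symbols for members that did not pass an adjusted p of 0.05. *Magel2* and *Plagl1* stand at the top with 1.48 and 1.07, and *Mirg*, *H19* and *Meg3* at the bottom with -1.80, -1.46 and -1.07.

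*Mirg*, a host transcript of miRNAs at the far end of the *Dlk1-Dio3* domain, fell most. It had 0.417, 0.487 and 0.414 CPM in input control and 0.519, 0.478 and 0.439 CPM in input ethanol, and between 0.0557 and 0.279 CPM in the 12 IP libraries, or 5 to 24 read pairs. The groups did not overlap, and the log2 fold change was -1.80 (SE 0.22, adjusted p = 1.22e-10). *Rian*, a host of small nucleolar RNAs in the same domain, stood at 10.7 ± 0.529 CPM in input (n = 6) and 6.99 ± 0.614 CPM in IP (n = 12), a difference of -0.61 in log2 (SE 0.05, adjusted p = 6.47e-19). Its pairs on the small RNA genes inside it count for neither gene, so its level is a lower value than the locus has.

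*H19*, a maternally expressed noncoding RNA and host of a miRNA that restrains growth, was 3.54 ± 0.696 CPM in input and 1.28 ± 0.141 CPM in IP, a difference of -1.46 in log2 (SE 0.08, adjusted p = 2.61e-26). *Igf2*, the fetal growth factor that shares its control region, was also lower in IP, with 3.18 ± 0.398 CPM in input and 1.66 ± 0.196 CPM in IP (-0.93, SE 0.08, adjusted p = 1.24e-16). Markers of other cell types were set beside these values. Of 10 microglia markers 9 were lower in IP and none higher (median log2 fold change -2.46), and of 11 fibroblast and meningeal markers 6 were lower, such as *Col1a1* with -1.62 and *Dcn* with -1.87, and 4 higher (median -1.15). The sum of the 11 ran the other way, from 4902 CPM in input to 7539 CPM in IP, with *Igfbp2* the most abundant, at 4654 CPM in input and 7390.1 CPM in IP. Of the astrocyte markers 8 of 10 were higher in IP and 1 lower, of the neuron markers 4 of 10 higher and 2 lower, of the oligodendrocyte markers 4 of 9 higher and 4 lower, and of the vascular and mural markers 4 of 9 higher and 3 lower. Their part in the *H19* and *Igf2* values was not tested. Of 7 noncoding RNAs outside imprinted domains that stay mostly in the nucleus, 5 were lower in IP and 1, *Xist*, higher, with a median of -0.84 (*Malat1* -1.51, *Neat1* -1.95).

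*Kcnq1ot1*, the paternally expressed RNA that silences its domain, fell by 0.63 on the log2 scale (SE 0.16, adjusted p = 0.0006), with overlapping groups. *Airn*, which silences *Igf2r* on the paternal copy, showed 1.27 ± 0.204 CPM in input and 1.27 ± 0.12 CPM in IP (0.01, SE 0.10, adjusted p = 0.973), and *Nespas*, antisense to *Gnas*, -0.13 (SE 0.25, adjusted p = 0.695).

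*Plagl1*, a zinc finger factor that regulates other imprinted genes and slows the cell cycle, was the abundant member that rose most. It stood at 49.8, 51.5 and 51.8 CPM in input control and 46.1, 48.4 and 49.7 CPM in input ethanol. In IP it ranged from 104 to 109 CPM in control (median 106) and from 94.7 to 109 CPM with ethanol (median 104), well clear of input. The log2 fold change was 1.07 (SE 0.02, adjusted p = 2.54e-48). *Mest* also rose, from 101 ± 2.58 CPM in input to 139.8 ± 4.06 CPM in IP (0.47, SE 0.02), and *Nnat*, a small membrane protein of calcium handling, from 1.84 ± 0.283 to 2.81 ± 0.217 CPM (0.61, SE 0.08). *Magel2*, a regulator of protein trafficking in the Prader-Willi domain, had the largest value, 1.48 (SE 0.49, adjusted p = 0.00811), but on 0 to 7 read pairs per input library and 2 to 18 per IP library. The input control libraries held 0, 0.0398 and 0.0109 CPM of it and the input ethanol libraries 0.0221, 0.0778 and 0.0376 CPM. In IP it ranged from 0.0253 to 0.129 CPM in control (median 0.0438) and from 0.0649 to 0.158 CPM with ethanol (median 0.122). These ranges overlap.

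Smaller rises were seen in *Zrsr1*, a retrogene of a splicing factor (0.34), *Snrpn*, a spliceosome protein (0.30), *Inpp5f*, a phosphoinositide phosphatase (0.29), *Igf2r* (0.26), and *Sgce*, a sarcoglycan (0.19), among others. The coding members that fell were *Usp29*, a deubiquitinase (-0.97), *Igf2*, *Peg10* (-0.56), *Rasgrf1*, a RAS exchange factor (-0.56), *Grb10*, an adaptor that damps insulin signalling (-0.55), *Gnas* (-0.43), *Slc22a18* (-0.23) and *Peg3*, a zinc finger repressor (-0.19). By domain, the Prader-Willi and Angelman domain had 4 of 6 members higher and 0 lower, *Nnat* and *Blcap* were both higher, *H19* and *Igf2* both lower, and the *Dlk1-Dio3* domain had 3 of 5 tested members lower and 0 higher. Members called in opposite directions within a domain were found in the *Peg10-Sgce* domain (-0.56 and 0.19) and the *Peg3* domain, where *Zim1* was 0.68 beside the falls of *Peg3* and *Usp29*. Differences between neighbours were not tested. Without TMM scaling *Blcap* (0.04), *Peg12* (0.11) and *Impact* (0.01) were no longer called.

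The second comparison asked which members were ethanol-regulated in ribosome-bound RNA. In the 12 IP libraries, 3 of 38 members were called (7.89%, against 22.4% of all genes tested), all 3 higher with ethanol, against 11.6% of all genes called higher and 10.8% lower. They were *Igf2r*, *Peg3* and *Zrsr1*. Only 1 member, *Igf2r*, had groups that did not overlap, against 10.5% of all genes tested. The median log2 fold change of the members was 0.04, against -0.00 for all genes. With offsets for GC content and transcript length, 8 of 38 members were called in IP, 5 higher and 3 lower, against 22.9% of all genes in that fit. Marker sums also moved with ethanol in IP. The astrocyte sum was 1790 to 1871 CPM in control and 1907 to 1987 CPM with ethanol, the vascular and mural sum 2906 to 3161 and 1916 to 2214 CPM, and the neuron sum, led by *Stmn2*, 132 to 139 and 119.8 to 127 CPM, each without overlap. Of the single markers in IP, 4 of 10 for astrocytes were called higher and 0 lower. For vascular and mural cells it was 0 and 3 of 9, and for neurons 0 and 1 of 10. In input the neuron sum was 109 ± 1.55 CPM in control and 101 ± 2.67 CPM with ethanol (n = 3 each). Their part in the changes of *Igf2r*, *Peg3* and *Zrsr1* was not tested.

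In input, 9 of 38 members were called (23.7%, against 16.3% of all genes tested), 5 higher and 4 lower, against 7.88% and 8.4% of all genes. With offsets for GC content and transcript length 6 of 38 were called, 1 higher and 5 lower, against 16.1% of all genes, and without input control replicate 6 there were 5 of 38, 2 higher and 3 lower, against 13% of all genes. Among genes with a mean of 1 CPM or more it was 9 of 30, against 27.9%. In these 3 fits the members stood near all genes. The 9 were *Igf2r*, *Zrsr1*, *Ube3a*, *Sgce* and *Impact*, which rose, and *Meg3*, *H19*, *Cdkn1c* and *Plagl1*, which fell. The groups of 13 members did not overlap, 6 higher and 7 lower with ethanol, against 28.1% of all genes (14.5% higher and 13.6% lower). Members were also split by the parental origin listed for each gene, which was not measured in these cells. Of the 12 listed as maternally expressed, 5 were called in input, 2 higher and 3 lower. Of the 22 listed as paternally expressed, 4 were called, 3 higher and 1 lower. Of the 4 listed as expressed from either allele or depending on tissue, 0 were called. *Igf2r* and *Zrsr1* were called in both fractions. The IP and input libraries share dishes, so the effects in the fractions are not independent of each other.

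**Figure D3:**
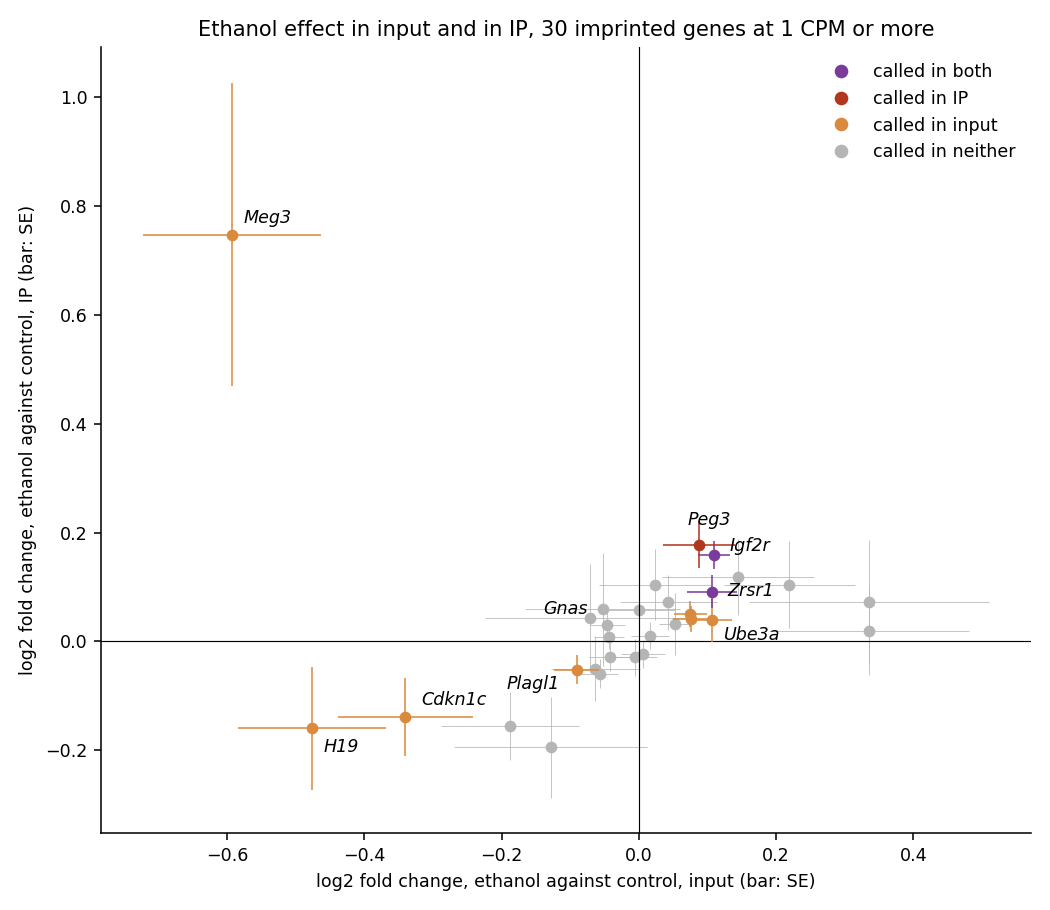
Log2 fold change of ethanol against control in input (x axis, 3 and 3 libraries) and in IP (y axis, 6 and 6 libraries), with SE bars, for the 30 members at 1 CPM or more. *Meg3* stands alone at the upper left with -0.59 in input and 0.75 in IP, and *H19* and *Cdkn1c* lie at the lower left.

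*Igf2r* rose in both fractions. In input it had 183, 179.7 and 180.0 CPM in control and 189, 198 and 199.8 CPM with ethanol. In IP it ranged from 207 to 220.4 CPM in control (median 214) and from 223 to 248 CPM with ethanol (median 238). In neither fraction did the groups overlap. The log2 fold change was 0.11 in input (SE 0.02, adjusted p = 4.28e-05) and 0.16 in IP (SE 0.02, adjusted p = 1.57e-06), and it was called in every alternative fit of either comparison.

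*Zrsr1* had 36.1, 35.0 and 36.0 CPM in input control and 38.3, 37.0 and 40.3 CPM in input ethanol. Its IP level ran from 43.1 to 48.0 CPM in control (median 46.2) and from 46.9 to 52.0 CPM with ethanol (median 47.7), with overlap. The effects were 0.11 (SE 0.04, adjusted p = 0.0282) and 0.09 (SE 0.03, adjusted p = 0.0242), and in IP the call was lost without any one of 4 libraries (control replicates 1 and 4, ethanol replicates 1 and 4), with adjusted p up to 0.0965. In input it was lost without control replicate 5 (adjusted p = 0.149), control replicate 6 (0.0566) or ethanol replicate 6 (0.293).

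*Peg3* was called only in the test of IP, where it ranged from 13.4 to 15.8 CPM in control (median 14.2) and from 14.9 to 17.9 CPM with ethanol (median 16.1). Only the highest control library, replicate 3, reached into the ethanol range. The log2 fold change was 0.18 (SE 0.04, adjusted p = 0.00154). In input it had 16.6, 17.9 and 15.5 CPM in control and 18.1, 17.7 and 17.4 CPM with ethanol (0.09, SE 0.05, adjusted p = 0.297). The difference between the fractions was 0.09 (SE 0.07, adjusted p = 0.907).

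Of the members that fell in input, *H19* had 3.72, 4.30 and 4.33 CPM in control and 3.32, 2.79 and 2.78 CPM with ethanol, without overlap (-0.48, SE 0.11, adjusted p = 0.000186). The IP level went from 1.21 to 1.60 CPM in control (median 1.34) and from 1.03 to 1.37 CPM with ethanol (median 1.22), largely the same range (-0.16, SE 0.11, adjusted p = 0.359). Of 11 fibroblast and meningeal markers 1 was higher and 1 lower with ethanol in input, with a median of 0.07. Their sum, most of it *Igfbp2*, was 5078 ± 95.5 CPM in input control and 4726 ± 215 CPM in input ethanol (n = 3 each), without overlap. Vascular and mural markers summed to 2325 ± 50.6 CPM in input control and 1651 ± 60.6 CPM in input ethanol (n = 3 each), with *Acta2* at -0.59 and *Tagln* at -0.47. Their part in the fall of *H19* was not tested.

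*Cdkn1c* had 4.85, 4.98 and 4.29 CPM in input control and 3.67, 3.89 and 3.62 CPM in input ethanol, again apart (-0.34, SE 0.10, adjusted p = 0.00574). Without input control replicate 5 it was -0.30 (adjusted p = 0.0637). Levels in IP ran from 4.21 to 5.24 CPM in control (median 4.66) and from 3.57 to 4.94 CPM with ethanol (median 4.32), and the groups overlapped (-0.14, SE 0.07, adjusted p = 0.179). Counted without strand, the call moved from input (-0.29, adjusted p = 0.2) to IP (-0.26, adjusted p = 0.0401). *Plagl1* showed a small change in input, -0.09 (SE 0.03, adjusted p = 0.0371), and -0.05 in IP (adjusted p = 0.185). Leaving out 1 input library ended the *Plagl1* call for 4 of the 6 libraries (control replicates 5 and 6, ethanol replicates 4 and 5), with values from -0.12 to -0.06. In IP it was called without ethanol replicate 5 (-0.07, adjusted p = 0.0352).

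**Figure D4:**
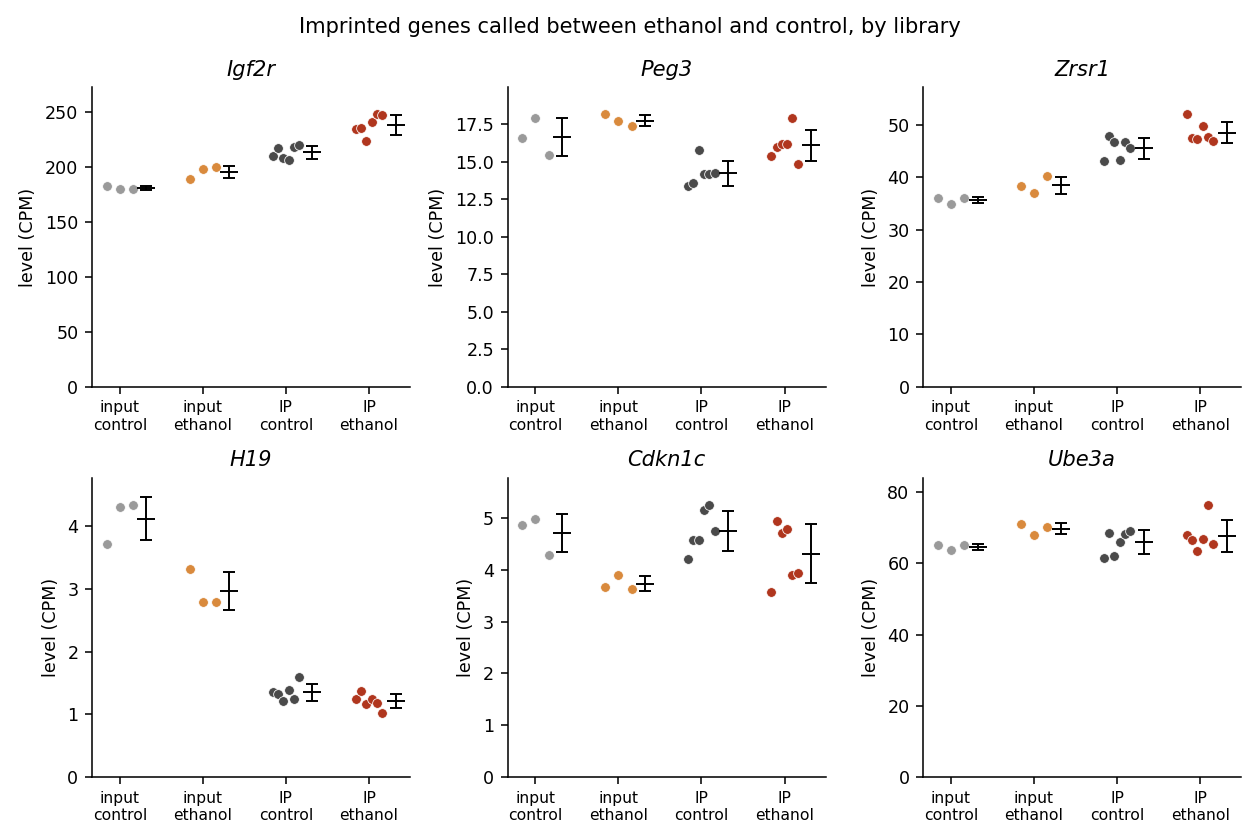
Level in CPM (y axis, from 0) of 6 members called between ethanol and control, 1 point per library in the 4 groups (x axis), with mean and SD at the right of each group. *Igf2r* is higher with ethanol in both fractions, while *H19* and *Cdkn1c* separate in input and overlap in IP.

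*Ube3a*, *Sgce* and *Impact* rose slightly in input. The astrocyte marker sum in input was also higher, with 1153 to 1198 CPM in control and 1201 to 1231 CPM with ethanol. The neuron, vascular and mural, and fibroblast and meningeal sums fell in input. Single markers did not all follow their sums. In input 4 of 10 astrocyte markers were called higher with ethanol and 3 lower, and of 10 neuron markers 1 and 1. Of 9 vascular and mural markers 0 were higher and 3 lower, and of 11 fibroblast and meningeal markers 1 and 1. Their part in the 3 rises was not tested. *Ube3a* had 65.1, 63.6 and 65.1 CPM in control and 71.0, 68.1 and 70.2 CPM with ethanol (0.11, SE 0.03, adjusted p = 0.00271). IP levels went from 61.5 to 69.1 CPM in control (median 67.0) and from 63.4 to 76.3 CPM with ethanol (median 66.6). Its groups separated in input and overlapped in IP, and the difference between the fractions was -0.07 (SE 0.06, adjusted p = 0.912). *Sgce* had 90.1, 91.0 and 88.3 CPM in input control and 96.5, 92.7 and 95.6 CPM in input ethanol (0.08, SE 0.03, adjusted p = 0.0287), with 103 to 107 CPM in IP control (median 104) and 104 to 109 CPM in IP ethanol (median 107). *Impact* had 137, 136 and 134 CPM in input control and 143, 144 and 142 CPM in input ethanol (0.08, SE 0.02, adjusted p = 0.0142), with 138 to 145.7 CPM (median 144) and 145.6 to 150.1 CPM (median 147.9) in IP. With offsets for GC content and transcript length, *Ube3a* (0.05, adjusted p = 0.26), *Sgce* (0.03, adjusted p = 0.495), *Impact* (0.05, adjusted p = 0.117) and *Zrsr1* (0.09, adjusted p = 0.0586) were not called in input. The *Sgce* call was lost without control replicate 4 or 6 or ethanol replicate 4 or 6 (adjusted p up to 0.188), and the *Impact* call without control replicate 6 (0.07, adjusted p = 0.112).

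*Gnas* differed little between ethanol and control. The log2 fold change was -0.04 in input (SE 0.02, adjusted p = 0.169) and 0.01 in IP (SE 0.02, adjusted p = 0.869), although the 3 input ethanol libraries all lay below the 3 control libraries.

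*Meg3* (ENSMUSG00000021268, GRCm38 chromosome 12 from 109541001 to 109571726, plus strand) had ethanol effects of opposite sign in input and IP. It had 2.69, 2.60 and 3.26 CPM in input control and 2.35, 1.91 and 1.38 CPM in input ethanol, or 110 to 299 read pairs. IP libraries ran from 0.622 to 1.12 CPM in control (median 0.828) and from 0.581 to 2.25 CPM with ethanol (median 1.44). All IP ethanol libraries lay above the highest control library except replicate 3, which was below the lowest.

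The fall in input was -0.59 (SE 0.13, adjusted p = 9.46e-05) and the value in IP 0.75 (SE 0.28, adjusted p = 0.0841). Without IP ethanol replicate 3 the IP value was 0.92 (adjusted p = 1.96e-06). DESeq2 called it with all 12 libraries (0.76, adjusted p = 0.0238). Over the 18 libraries no gene passed for a difference of the ethanol effect between fractions in edgeR (0 of 23718 genes, 1438 at an unadjusted p under 0.05, 4 genes with DESeq2), and the *Meg3* difference was 1.34 (SE 0.41, adjusted p = 0.711). IP and input of one dish are paired, and in the 12 libraries of replicates 4 to 6, which leave out IP ethanol replicate 3, a block for the dish gave 104 genes (0.439%). *Meg3* was the only member among them, at 1.29 (adjusted p = 4.55e-06), and it passed in the same 12 libraries with no block (1.30, adjusted p = 0.00361) and without each dish in turn, at 0.97 to 1.51. With the block, the count over all genes was 18 to 98 without each dish in turn, and 38 with offsets for GC content and transcript length. Without IP ethanol replicate 3 and with no block, *Meg3* also passed (adjusted p = 0.0129).

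The same difference can be read from the fractions within each treatment. For *Meg3* within the control libraries IP against input was -1.75 (adjusted p = 9.75e-25), and within the ethanol libraries -0.40 (adjusted p = 0.463), and the test of the difference between these values is the one given above.

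No other member of the domain was called for ethanol. *Rian* had 11.2, 10.7 and 10.8 CPM in input control and 9.77, 10.5 and 11.2 CPM in input ethanol, and its ethanol values were -0.06 in input (adjusted p = 0.614) and -0.05 in IP (adjusted p = 0.64). *Mirg* showed 0.12 in input and -0.31 in IP, and *Dlk1*, the paternally expressed Notch-family ligand of the domain, 0.04 and 0.07. *Dio3* had -1.14 in input (SE 1.26, adjusted p = 0.659) and 0.60 in IP (SE 0.74, adjusted p = 0.649), on 0 to 9 read pairs per library. As a percentage of the *Rian* CPM in the same library, the *Meg3* CPM was 26.1 ± 3.4% for input control (SD, n = 3) and 18.2 ± 5.86% for input ethanol (n = 3). The IP percentages were 12 ± 1.72% for control and 21.1 ± 8.25% for ethanol (n = 6 each).

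**Figure D5:**
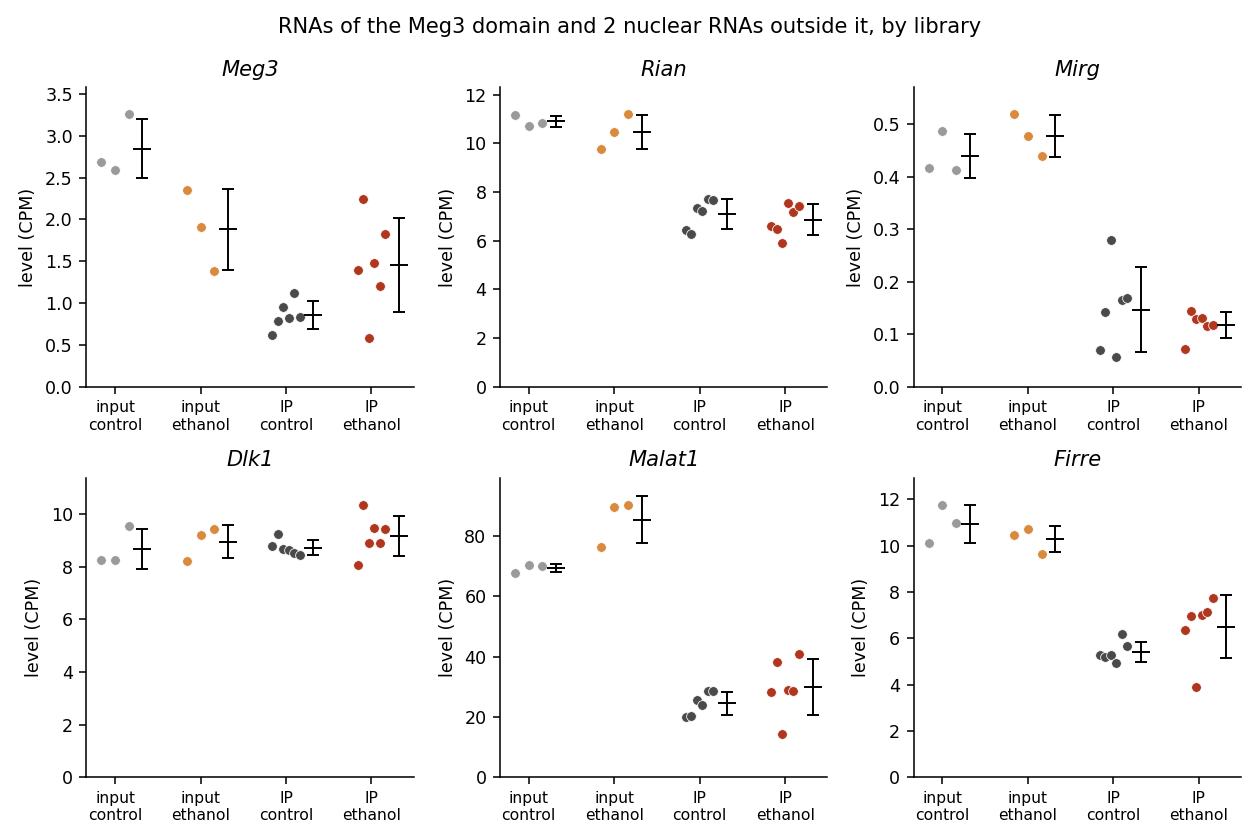
Level in CPM (y axis, from 0) of 4 RNAs of the *Meg3* domain and of the nuclear RNAs *Malat1* and *Firre* by library (points, in replicate order) in the 4 groups (x axis), with mean and SD. In IP ethanol, replicate 3 is lowest for *Meg3*, *Rian*, *Malat1* and *Firre*, and for *Meg3* and *Firre* the other 5 lie above every IP control library. In input the *Meg3* groups do not overlap and those of *Firre* do.

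Some nuclear RNAs outside the domain varied with *Meg3* among the IP ethanol libraries. *Malat1*, a nuclear speckle RNA, had 28.3, 38.2, 14.5, 28.9, 28.5 and 40.9 CPM in IP ethanol replicates 1 to 6. *Firre*, a nuclear RNA of the X chromosome, had 6.34, 6.95, 3.89, 6.99, 7.13 and 7.72 CPM, and *Xist*, which coats the inactive X chromosome, 2.33, 9.19, 1.28, 6.51, 6.24 and 10.8 CPM. *Meg3* in the same libraries was 1.39, 2.25, 0.581, 1.48, 1.20 and 1.83 CPM. Replicate 3 was lowest and replicates 2 and 6 were highest for *Meg3*, *Malat1*, *Xist* and *Neat1* alike. Among the 7 nuclear RNAs of the list, replicate 3 was lowest for all but *Pvt1*. *Pvt1*, from the same list of 7, did not follow this order, with 16.3, 15.7, 16.2, 15.6, 16.7 and 15.4 CPM. In IP control *Malat1* ranged from 20.0 to 28.8 CPM, overlapping IP ethanol, and *Firre* from 4.94 to 6.17 CPM. As for *Meg3*, all IP ethanol libraries except replicate 3 lay above the highest IP control library for *Firre* (0.26, adjusted p = 0.262). In input *Malat1* rose with ethanol (0.30, adjusted p = 3.26e-05) and *Xist* rose (0.84, adjusted p = 3.66e-08), while *Meg3* fell and *Firre* showed -0.10 (adjusted p = 0.378). The part of nuclear RNA carried into the IP in the *Meg3* values was not tested.

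The genes whose levels followed *Meg3* most closely over the 18 libraries, taken from the 14491 genes that averaged 0.5 CPM or more, were *B3gnt9* (Pearson r 0.90), *Firre* (0.90), *4930581F22Rik* (0.88), *Gm17435* (0.88) and *Extl3* (0.87). *Rian* had 0.73, *H19* 0.73 and *Dlk1* 0.12. All libraries enter each value, so the difference between IP and input is part of it.

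Proteins that maintain imprints were compared next, since they act on imprinting control regions. Of 14 such genes 3 fell with ethanol in IP and none rose, and in input 4 fell and 1 rose, with medians of 0.02 and -0.00. Of all genes 22.4% were called in IP and 16.3% in input. *Uhrf1*, which brings the maintenance methyltransferase to newly copied DNA, fell by 0.42 in IP (adjusted p = 1.06e-10) and by 0.63 in input (adjusted p = 1.2e-21) on the log2 scale. *Dnmt1*, that methyltransferase, fell by 0.24 in IP and by 0.21 in input, and *Cbx5*, a heterochromatin protein, by 0.09 and 0.11. *Zfp57* fell in input (-0.25, adjusted p = 0.0291) and had -0.11 in IP (adjusted p = 0.439), while *Setdb1*, a histone methyltransferase, rose in input (0.11). Both *Uhrf1* and *Dnmt1* are also expressed with the cell cycle. Methylation itself was not measured.

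Among 32 tested genes of a further list, which holds neighbours of the members and genes of a few other imprinted loci, 2 rose and 6 fell with ethanol in IP, and 2 rose and 3 fell in input, shares near the 22.4% and 16.3% of all genes called in these comparisons. *Cobl*, an actin nucleator next to *Grb10*, fell by 0.42 in IP (adjusted p = 4.6e-15) and by 0.44 in input (adjusted p = 6.11e-20), while *Grb10* itself had -0.03 and -0.01. *Mcts2*, an imprinted retrogene, fell in IP (-0.28), and *Adam23*, a neighbour of *Zdbf2*, rose in both fractions (0.22 and 0.20), as did the noncoding *Peg13* (0.20 and 0.17). *Tssc4*, in the *Kcnq1ot1* domain, fell in both (-0.20 and -0.17).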

How the data were processed

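Per the labels and the study's methods, total RNA of each fraction was made into stranded paired-end libraries, and the authors trimmed the reads with Trimmomatic and aligned them with STAR to GRCm38 with an Ensembl annotation, whose release is not given in the sources used here. The deposited values are raw counts of read pairs per gene in 3 forms, without strand, on one strand and on the other. A deposited series table holds the same values as the unstranded columns (0 differences), and 0 columns were left unmapped. The own-strand column was used here, since 4.35% of stranded pairs lay on the opposite strand. Genes with at least 10 pairs over the 18 libraries were tested in edgeR 4.0.16 (R 4.3.3) with TMM scaling and the quasi-likelihood test, and Benjamini-Hochberg adjusted p under 0.05, computed over every gene in the fit, was called. Ethanol was compared with control in the 12 IP and in the 6 input libraries, IP with input over the 18 libraries with a term for treatment, and the ethanol effect between fractions as an interaction. CPM were computed here with TMM over the 18 libraries. SE is the log2 fold change divided by the root of F. Positions are from GENCODE M21.

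IP and input replicates of one number come from one dish, and their deviations from the group means correlated at 0.03 to 0.21 (mean 0.10), against -0.16 to 0.14 for other dishes. The number alone links control to ethanol dishes. Median own-strand depth was 87471401 pairs. Low members rest on few pairs per IP library (*Meg3* 53 to 203, *H19* 79 to 171, *Airn* 88 to 206), where counting error can be as large as the smaller ethanol effects.

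Members and gene lists were chosen with earlier results of these data known. Library values are given for *Meg3*, *Gnas*, members called for ethanol, and called members with an absolute log2 fold change of at least 1 between fractions. They are also given for *Rian*, for nuclear RNAs set beside *Meg3*, and for *Nnat* and *Peg12*, whose input groups did not overlap. Single values are given for libraries flagged as far from the others. From the lists, genes were named by the 3 largest changes past the threshold with ethanol in a fraction. *Tssc4* lay outside these 3 in both fractions and was named in addition. *Neat1*, *Setdb1*, *Firre*, *Pvt1*, *Col1a1* and *Dcn* were named after their values were seen. The alternatives were unstranded counts, other scalings and filters, DESeq2 1.42.0, offsets for GC content and length, blocks, subsets of replicates and leaving out each library. The fits were tested on simulated data.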

Additional observations from a re-analysis of the deposited data

Results flagged for a closer look

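Among 76 groups of 6 IP libraries, 7 had 1 library far from the other 5, where chance gives about 1 in 20. In IP control replicate 3, *Copg2* was low at 62.5 CPM (others 65.6 to 66.8), *Grb10* was low at 32.4 CPM (others 34.9 to 36.2) and *Peg3* was high at 15.8 CPM (others 13.4 to 14.2). In IP control replicate 5, *Gnas* was low at 1532 CPM (others 1570 to 1593) and *Mkrn3* was high at 2.2 CPM (others 1.62 to 1.78). *Sgce* was high in IP control replicate 4 at 107 CPM (others 103 to 104), and *Ube3a* was high in IP ethanol replicate 5 at 76.3 CPM (others 63.4 to 67.8).

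The ethanol effects on *Meg3* in IP and input differed by 1.29 on the log2 scale with the dish as a block (adjusted p = 4.55e-06, edgeR), higher in IP, in the 12 libraries of replicates 4 to 6. The same libraries gave 1.30 with no block (adjusted p = 0.00361), and all 18 gave 1.34 (adjusted p = 0.711). The 12 leave out IP ethanol replicate 3, without which the other 17 libraries also passed (adjusted p = 0.0129, *Meg3*).

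The strand opposite to *Rtl1* held 45 read pairs over the 18 libraries, against 6 on its own, and the strand opposite to *Nespas* held 496, against 307. *Nespas* overlaps exons of *Gnas*.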

How the results depend on the processing

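No called log2 fold change of a member turned sign in the alternatives run for it. Values that were not called and lay near 0 did, for *Gnas* and *Ube3a* in IP (down to -0.04 and -0.01 with offsets for GC content and length) and for the difference of effects of *Cdkn1c*, *Impact*, *Sgce* and *Zrsr1*, and the balance of calls in input turned from 5 higher and 4 lower to 1 and 5 with offsets for GC content and length, 2 and 3 without input control replicate 6, and 4 and 5 without input ethanol replicate 6. In IP, 3 of 38 members were called (22.4% of all genes), and 5 of 30 with a mean of at least 1 CPM (40.9%), 6 with DESeq2 (23.9%), 5 with replicates 4 to 6 (15.8%), 1 with replicates 1 to 3 (13.1%) and 8 with offsets for GC content and length (22.9%). Leaving out 1 library gave 2 to 5 called members in IP (5 without IP ethanol replicate 3 or 5), 5 to 9 in input against 9 (5 without input control replicate 6, 6 without input control replicate 5), 27 to 28 between fractions against 27, and 0 to 1 for the difference of ethanol effects against 0. Other settings gave 6 to 9 in input and 20 to 28 between fractions. For the difference of ethanol effects, 1 member (*Meg3*) was called with the dish as a replicate block, 1 in the same 12 libraries with no block, 1 with the block and offsets for GC content and length, and 1 without each dish in turn, a setting chosen after seeing the data, as were the fits within each treatment. Over all genes, the 12 libraries gave 12 calls with no block and 104 with it, and the 18 libraries 0. The 104 fell to between 18 and 98 without each dish in turn, and to 38 with the offsets. *Meg3* in IP was called with no count filter (adjusted p = 0.00568), with a mean of at least 1 CPM (0.0368), with DESeq2 (0.0238), with replicates 4 to 6 (0.000816) and with the replicate number as a block (1.84e-07), and not with replicates 1 to 3 (0.296). The replicate number as a block gave 4 called members in IP and 9 in input. Whether control and ethanol dishes of one number are paired is not given in the sources used here. In IP, deviations of control and ethanol libraries correlated at -0.14 to 0.40 for one number (mean 0.10). For other numbers they correlated at -0.38 to 0.37 (mean -0.02). The input values were 0.04 to 0.06 for one number and -0.12 to 0.07 for other numbers. Over all genes, IP replicates 1 to 3 gave 3082 calls against 5305. Members under 1 CPM rest on few pairs, and the cause of each change was not tested.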

Other observations

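Some members showed groups that did not overlap without passing the test. In input, *Nnat* had 1.48, 1.81 and 1.58 CPM in control and 2.25, 1.90 and 2.02 CPM with ethanol (0.34, SE 0.15, adjusted p = 0.107), and 0.02 in IP (adjusted p = 0.917). *Peg12*, an intronless gene of the Prader-Willi domain, had 4.24, 4.57 and 4.17 CPM in input control and 3.48, 3.91 and 4.05 CPM in input ethanol (-0.19, SE 0.10, adjusted p = 0.225), with -0.16 in IP (SE 0.06, adjusted p = 0.0689). The input groups of *Usp29* were also apart, lower with ethanol (-0.52, SE 0.39, adjusted p = 0.454), on 15 to 32 read pairs per library. Those of *Gnas* are given above. *Airn* had 1.13 ± 0.167 CPM in input control and 1.42 ± 0.102 CPM in input ethanol (n = 3 each), with overlap (0.34, SE 0.17, adjusted p = 0.21).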
